A study of Mus musculus with 8 samples.

Results

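Cdkn2a, Cdkn2b, Cdkn2c, Cdkn2d, Cdkn1a, Cdkn1b, Ccnd1, Ccnd2 and Ccnd3, the INK4 and CIP/KIP inhibitors of cyclin-dependent kinases (without Cdkn1c) and the D-type cyclins, were followed as 9 of the 21352 genes of an H3K27me3 data set from mouse primordial germ cells. They were taken by name as members of these families, with earlier results of these data known, and all 9 were listed in every file and lie on autosomes. The cells, the embryonic precursors of oocytes and sperm, were sorted from pooled embryos of 1 sex and profiled by CUT&RUN, in which an antibody tethers micrococcal nuclease to chromatin and the released fragments are sequenced. With the H3K27me3 antibody there was a library from females at E12.5 and one from females at E11.5. With IgG, the control for untargeted cleavage, there was a library from males at E11.5, one from females at E12.5 and one from females at E13.5. All embryos were B6 x Cast crosses. Females had the genotype Xist KO/+:Oct4-eGFP+/- and males Xist KO/Y:Oct4-eGFP+/-, so the knockout of Xist, the RNA that silences an X chromosome, and the Oct4 reporter were present in every group and no group without them was analysed. The labels list 8 samples, of which 5 had a file; the second replicates of both H3K27me3 groups (3 samples) were not analysed here. Each group therefore had 1 library, no difference below has a replicate check, and no p-value between antibodies or stages is given for levels.

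INK4 proteins bind the kinases CDK4 and CDK6 and keep D-type cyclins from activating them, whereas CIP/KIP proteins bind whole cyclin-kinase complexes. Active cyclin D-CDK4/6 phosphorylates the retinoblastoma protein, which releases E2F factors and lets a cell enter S phase. H3K27me3 is placed by Polycomb repressive complex 2 on silent genes, and the Cdkn2a-Cdkn2b locus is a textbook target: loss of Polycomb function in fibroblasts derepresses it and the cells stop dividing.

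The reads used were those the authors assigned to an allele. The H3K27me3 libraries held 5020062 autosomal reads at E12.5 and 2356356 at E11.5, and the IgG libraries held 1357583 at E11.5, 1515532 at E12.5 and 5705401 at E13.5. A level is the reads of both alleles over a gene per 1000000 autosomal reads of the library (RPM), and it averages over the pooled cells, so that a mark on more cells and more mark per cell cannot be told apart. Ratios were called past 2-fold on log2(level + 1) among autosomal genes for which both libraries together gave 20 reads or more, and their 95% intervals (exact, conditional on the reads of both libraries) cover counting error only. Of the 16526 genes compared at E12.5, 2511 lay past 2-fold above IgG and 4881 below it, and the median log2 ratio was -0.54. Scaling by edgeR's TMM factors, which raised that median by 0.51, put 4114 genes above and 918 below. Among genes of known state, all 32 Hox genes tested lay past 2-fold above IgG at E12.5, while 0 of 10 housekeeping genes did so and 6 lay below. Of 9 germ cell genes tested, 0 were above and 3 below, and of 9 somatic gonad genes 8 were above and 0 below. Of 4 blood genes tested 1 was above and 0 below, and of 5 endothelial genes 0 were above and 1 below. Over all genes compared, 15.2% were above and 29.5% below. The counts below among germ cell and endothelial genes were thus not particular to these lists. These lists read the mark, not expression, and the purity of the sorted cells was not tested.

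Promoter windows are shown for the members that stood farthest above and below IgG at E12.5. RefSeq (GRCm38.p6) gave windows of 300 bases, from 250 before a transcript start to 50 after it, for 7 of the 9 members and 11 starts. Cdkn2a has 2 such starts: the one at the gene's outer end opens the transcript for p19ARF, and the inner one opens that for p16INK4a. In the sequences below, read 5′ to 3′ on the gene's strand, capitals mark CG pairs.
Cdkn2a, outer start, chr4:89294570-89294869, minus strand: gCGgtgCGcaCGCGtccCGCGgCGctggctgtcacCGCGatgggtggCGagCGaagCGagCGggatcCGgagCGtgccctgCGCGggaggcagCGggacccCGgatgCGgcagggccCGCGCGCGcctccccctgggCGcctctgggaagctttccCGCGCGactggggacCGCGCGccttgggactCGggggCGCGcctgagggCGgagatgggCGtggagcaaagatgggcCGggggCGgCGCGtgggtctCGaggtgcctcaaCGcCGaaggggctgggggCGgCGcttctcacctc
Cdkn2a, inner start, chr4:89282143-89282442, minus strand: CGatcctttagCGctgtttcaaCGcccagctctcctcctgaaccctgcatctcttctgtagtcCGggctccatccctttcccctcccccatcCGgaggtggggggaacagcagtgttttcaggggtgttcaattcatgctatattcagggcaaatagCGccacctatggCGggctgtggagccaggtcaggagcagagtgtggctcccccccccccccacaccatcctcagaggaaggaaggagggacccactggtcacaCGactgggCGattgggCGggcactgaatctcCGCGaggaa
Cdkn2b, chr4:89310983-89311282, minus strand: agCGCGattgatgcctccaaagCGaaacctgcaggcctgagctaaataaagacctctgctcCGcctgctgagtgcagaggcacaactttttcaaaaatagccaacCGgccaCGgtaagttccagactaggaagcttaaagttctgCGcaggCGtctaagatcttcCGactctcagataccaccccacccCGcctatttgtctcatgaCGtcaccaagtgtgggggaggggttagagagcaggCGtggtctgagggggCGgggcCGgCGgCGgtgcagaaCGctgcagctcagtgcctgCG
Cdkn1a, first start, chr17:29090729-29091028, plus strand: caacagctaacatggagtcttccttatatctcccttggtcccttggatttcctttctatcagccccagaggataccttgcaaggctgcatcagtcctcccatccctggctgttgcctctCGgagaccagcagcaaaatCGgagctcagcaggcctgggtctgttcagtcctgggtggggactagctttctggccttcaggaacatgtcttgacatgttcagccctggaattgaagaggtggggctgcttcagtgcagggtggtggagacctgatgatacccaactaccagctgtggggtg
Cdkn1a, second start, chr17:29093519-29093818, plus strand: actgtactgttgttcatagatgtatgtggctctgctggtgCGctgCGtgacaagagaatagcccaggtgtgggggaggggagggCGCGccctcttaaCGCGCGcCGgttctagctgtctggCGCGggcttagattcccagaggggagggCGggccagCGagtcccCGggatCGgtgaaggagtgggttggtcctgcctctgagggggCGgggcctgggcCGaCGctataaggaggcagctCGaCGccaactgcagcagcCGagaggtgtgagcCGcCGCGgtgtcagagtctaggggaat
The outer Cdkn2a window held 45 CG pairs, more than 98.1% of 32851 mouse windows of the same length, and the inner one 12. Cdkn2b had 18. The Cdkn1a windows held 2 and 23, and the median of all windows was 7. GGGCGG, the GC box, searched on both strands and overlapping the CG count, occurred 3 times in the outer and 1 time in the inner Cdkn2a window, 1 time in Cdkn2b and 2 times in the second Cdkn1a window, and 35.7% of all windows held it. TATAAA, in 13.6% of windows, and the E2F-type letters TTTGGCGC, in 0.514%, and TTTCGCGC, in 0.323%, searched on both strands, were in none of the 11 windows. The deposited counts run over whole genes, so they do not place reads within these windows.

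Among the INK4 genes, Cdkn2a and Cdkn2b stood above IgG in both H3K27me3 libraries, and Cdkn2a had the higher level of the pair. Cdkn2a had 568 reads in the H3K27me3 library at E12.5 and 291 at E11.5, against 32, 32 and 133 in IgG at E11.5, E12.5 and E13.5. As levels these were 113 and 124 RPM with H3K27me3 and 23.6, 21.1 and 23.3 with IgG, so that both H3K27me3 libraries lay well above all 3 controls, which were close to each other. Relative to the control of the same stage, Cdkn2a stood 5.36-fold higher at E12.5 (95% interval 3.75 to 7.91) and 5.24-fold higher at E11.5 (3.63 to 7.80), and 98.1% of autosomal genes had a lower ratio at E12.5. Against IgG E13.5, the deepest control, it was 4.85 (4.01 to 5.91) at E12.5 and 5.30 (4.30 to 6.55) at E11.5.

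Cdkn2b encodes p15INK4b, whose transcription in many epithelial cells responds to TGF-beta. It had 57 and 40 reads with H3K27me3 at E12.5 and E11.5, and 7, 4 and 31 reads with IgG at E11.5, E12.5 and E13.5. Levels were 11.4 and 17.0 RPM with H3K27me3, against 5.16, 2.64 and 5.43 with IgG, without overlap of these point values. The exact Poisson interval of H3K27me3 E12.5 (8.6 to 14.7) did overlap that of IgG E11.5 (2.07 to 10.6). Intervals of the other pairs of an H3K27me3 and an IgG library did not overlap. For no member was the share of autosomal genes whose levels separate by antibody in this way counted. The ratios were 4.30 (1.59 to 16.3) at E12.5 and 3.29 (1.46 to 8.71) at E11.5. Only 4 reads stood in the E12.5 control; against IgG E13.5 the E12.5 ratio was 2.09 (1.33 to 3.35), which on log2(level + 1) was 0.94 and missed the 2-fold threshold. At E11.5 that control gave 3.12 (1.91 to 5.17).

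The other INK4 genes, Cdkn2c for p18INK4c and Cdkn2d for p19INK4d, had few reads. Cdkn2c stood at 6.77 and 8.06 RPM with H3K27me3 at E12.5 and E11.5, and at 1.47, 7.26 and 5.08 with IgG at E11.5, E12.5 and E13.5. Its E11.5 ratio of 5.47 (1.32 to 48.5) rested on 2 control reads: it was 1.11 against IgG E12.5 and 1.59 (0.841 to 2.93) against IgG E13.5, and at E12.5 the ratio was 0.933 (0.462 to 2.04). Cdkn2d had 4.18 and 4.24 RPM with H3K27me3, within the IgG range of 5.16, 7.26 and 3.16. Its E12.5 ratio was 0.576 (0.266 to 1.32), and at E11.5 the pair of libraries held too few reads to be called.

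**Figure D1:**
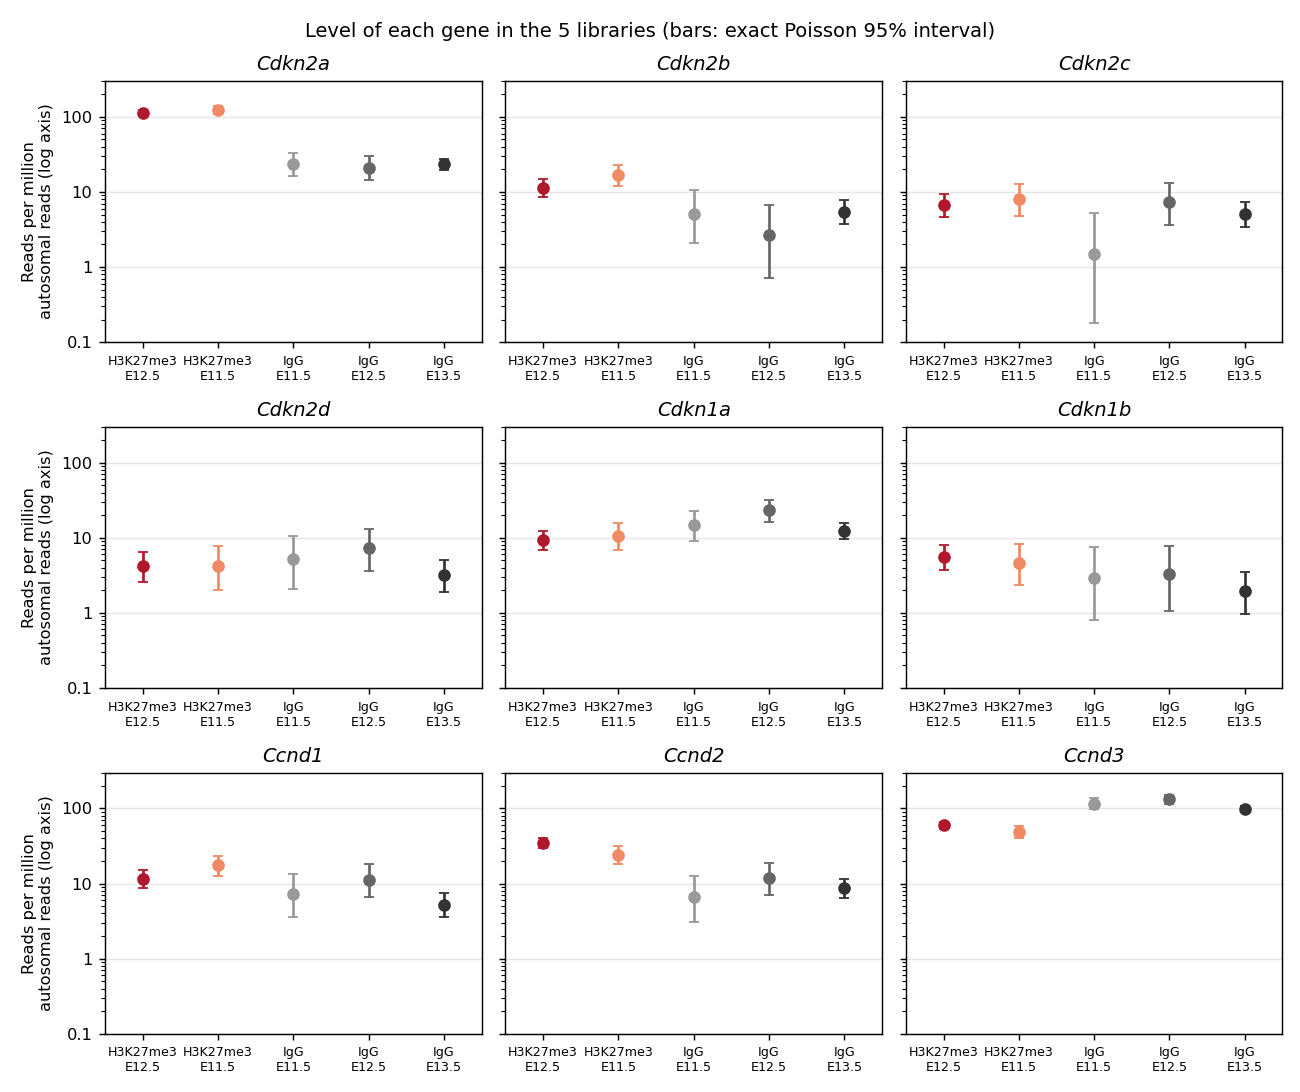
Level of each gene (RPM, log axis) in the 5 libraries, H3K27me3 at E12.5 and E11.5 left of IgG at E11.5, E12.5 and E13.5; each point is 1 library and bars are exact Poisson 95% intervals. Cdkn2a, at 113 and 124 with H3K27me3, stands above its 3 controls, while Ccnd3, at 59.6 and 49.2, stands below its own.

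The CIP/KIP genes Cdkn1a and Cdkn1b lay on opposite sides of their IgG levels. The intervals of their ratios to stage-matched IgG overlapped at both stages, and at E12.5 those to IgG E13.5 did not. Cdkn1a encodes p21, the inhibitor induced by p53 after DNA damage. Its levels were 9.36 and 10.6 RPM with H3K27me3 at E12.5 and E11.5, and 14.7, 23.1 and 12.3 with IgG at E11.5, E12.5 and E13.5. All 3 controls were higher than both H3K27me3 libraries, and the female E12.5 control stood highest. The E12.5 ratio was 0.405 (0.256 to 0.647), past 2-fold below, whereas the E11.5 ratio was 0.720 (0.384 to 1.37) and the E12.5 ratio to IgG E13.5 was 0.763 (0.516 to 1.12). Cdkn1b, for p27, an inhibitor that holds many cells in quiescence, had 28 and 11 reads with H3K27me3 and 4, 5 and 11 with IgG. Its levels of 5.58 and 4.67 RPM with H3K27me3 lay above 2.95, 3.30 and 1.93 with IgG. The E12.5 ratio was 1.69 (0.645 to 5.61) against the control of that stage. Against IgG E13.5 it was 2.89 (1.40 to 6.44), past 2-fold. The E11.5 pair held 15 reads, under the minimum.

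The D-type cyclins went 3 ways at E12.5 against the control of that stage. Ccnd2, the cyclin D of ovarian granulosa cells and many other cells, had 176 and 57 reads with H3K27me3 at E12.5 and E11.5, and 9, 18 and 50 with IgG at E11.5, E12.5 and E13.5. Levels of 35.1 and 24.2 RPM with H3K27me3 lay above 6.63, 11.9 and 8.76 with IgG. The ratio was 2.95 (1.81 to 5.10) at E12.5 and 3.65 (1.79 to 8.38) at E11.5, and it was 4.00 (2.91 to 5.59) and 2.76 (1.86 to 4.12) at those stages against IgG E13.5. Against the female IgG E12.5 the E11.5 ratio was 2.04 (1.18 to 3.68), which on log2(level + 1) was 0.97 and missed the threshold. Ccnd1, a target of growth factor signalling in many tissues, stood at 11.6 and 17.4 RPM with H3K27me3, against 7.37, 11.2 and 5.26 with IgG. Its ratio was 1.03 (0.592 to 1.89) at E12.5 and 2.36 (1.16 to 5.29) at E11.5. Here the control decided the call. Against IgG E13.5 the ratio was 2.20 (1.39 to 3.54) at E12.5 and 3.31 (2.02 to 5.49) at E11.5, both past 2-fold. That E11.5 value lay above the 2.76 of Ccnd2 against the same control. Against the female IgG E12.5 the E11.5 ratio of Ccnd1 was 1.55, not past 2-fold.

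Ccnd3, known for its role in lymphocyte expansion, was the only member below IgG past 2-fold at both stages. It had 59.6 and 49.2 RPM with H3K27me3 at E12.5 and E11.5, and 116, 132 and 97.8 with IgG at E11.5, E12.5 and E13.5. Both H3K27me3 libraries were lower than every control. The ratio was 0.451 (0.376 to 0.543) at E12.5 and 0.423 (0.330 to 0.541) at E11.5. Since most of the genome also lay below IgG on this scale, the deficit was smaller relative to the median gene. Against IgG E13.5 the ratio was 0.609 (0.527 to 0.702) at E12.5 and 0.503 (0.409 to 0.616) at E11.5.

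In all, 3 of 9 members (Cdkn2a, Cdkn2b and Ccnd2) were past 2-fold above IgG at E12.5, where 15.2% of autosomal genes were, and 2 (Cdkn1a and Ccnd3) were past 2-fold below, where 29.5% were. The members' median log2 ratio was 0.04. With TMM scaling 4 members were above, where 24.9% of genes were, and 0 below, where 5.55% were. Against IgG E13.5 there were 4 above (Cdkn2a, Cdkn1b, Ccnd1 and Ccnd2; background 15.9%) and 0 below (24.2%), and against the 3 IgG libraries added together 3 above (14.5%) and 0 below (25.7%). At E11.5, where 7 members had enough reads, 5 were above (Cdkn2a, Cdkn2b, Cdkn2c, Ccnd1 and Ccnd2; background 17.2%) and 1 below (Ccnd3; background 29.7%). TMM scaling gave 5 above (23.8%) and 0 below (9.35%) there. The E11.5 control was male, and with the female IgG E12.5 in its place 2 were above, Cdkn2a (5.85) and Cdkn2b (6.43), and 2 below, Cdkn1a (0.459) and Ccnd3 (0.373), over backgrounds of 15.2% and 31.8%. IgG E13.5 gave 4 above (16.8%) and 0 below (27.2%), and the added IgG libraries 4 above (15.4%) and 1 below (28.3%).

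**Figure D2:**
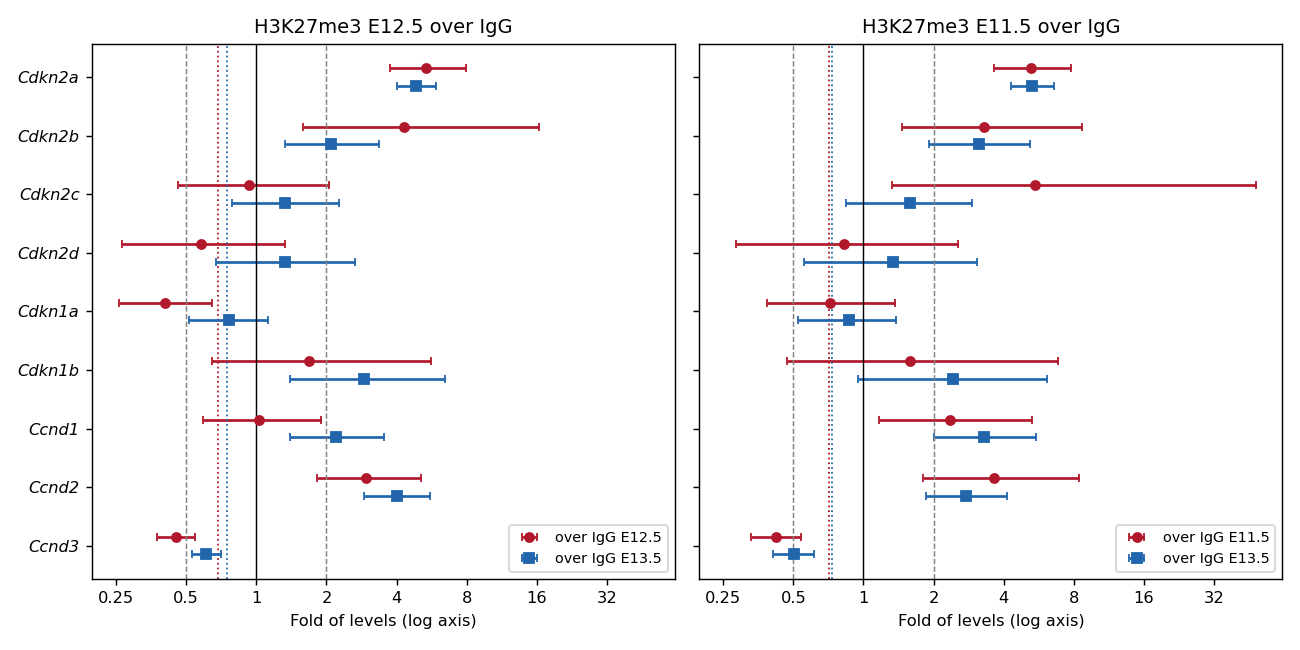
Ratio of the H3K27me3 level to the IgG level for each gene (log axis) at E12.5 and E11.5, against the stage-matched control and against IgG E13.5, with exact conditional 95% intervals; the solid line is a ratio of 1, dashed lines are 0.5 and 2, and dotted lines are the median autosomal gene. Cdkn2a lies between 4.85 and 5.36 in all 4 comparisons and Ccnd3 between 0.423 and 0.609.

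The plot of ratios over all autosomal genes places the members. Cdkn2a, Cdkn2b and Ccnd2 stood at the high side at E12.5, above 98.1%, 94.4% and 91.7% of genes, and Cdkn1a and Ccnd3 had 17.4% and 21.8% of genes below them. The members' ratios thus spanned much of the distribution rather than sitting together.

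**Figure D3:**
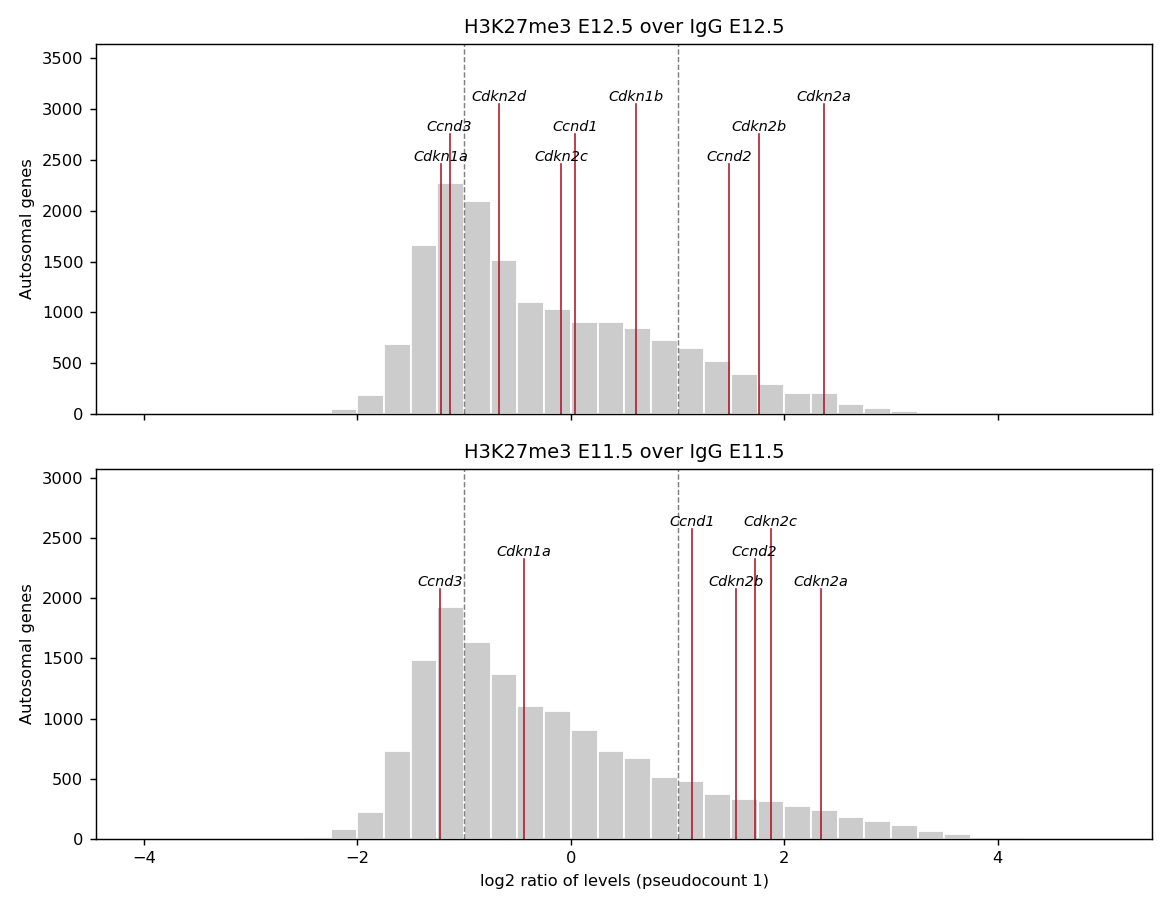
Number of autosomal genes by log2 ratio of H3K27me3 to stage-matched IgG at E12.5 and at E11.5 (pseudocount 1), with the members tested drawn as lines. At E12.5 Cdkn2a is at 2.37 and Cdkn1a at -1.22, and the median gene is at -0.54.

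Because genes differ in length, levels of different genes were set beside each other per kilobase; the density of variants that make a read informative also differs and was not known here. In the H3K27me3 library at E12.5 Cdkn2a had 5.61 RPM per kilobase (5.15 to 6.09) and Cdkn2b 2.40 (1.81 to 3.10), and these intervals did not overlap. Cdkn2d, Ccnd2, Ccnd1, Cdkn1b, Cdkn2c and Cdkn1a followed at 1.40, 1.30, 1.16, 1.09, 1.07 and 0.960, where each interval overlapped that of its neighbours in the order. Ccnd3 was lowest at 0.629 (0.560 to 0.705), an interval that lay just beyond the edge of that of Cdkn1a (0.705 to 1.28). The IgG E12.5 library had another order: Cdkn2d, at 2.42, and Cdkn1a, at 2.37, were highest, with Cdkn2a at 1.05, and Ccnd2 was lowest at 0.439.

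Between stages, 0 of 9 members were past 2-fold in the H3K27me3 E12.5 library relative to E11.5, where 0.756% of autosomal genes were higher and 0.787% lower, so that a count of 0 says nothing particular to these genes. Cdkn2a had a ratio of 0.916 (0.794 to 1.06) and Cdkn1a one of 0.882. Ccnd2 had the one interval clear of 1, at 1.45 (1.07 to 1.99), above 93.6% of genes. The lowest ratios were those of Ccnd1, 0.664 (0.438 to 1.02), and Cdkn2b, 0.669 (0.439 to 1.03), with 6.28% and 6.65% of genes below them. For genes with few reads the intervals were wide and included a 2-fold difference, as for Cdkn1b (0.577 to 2.66) and Cdkn2d (0.444 to 2.34). As a measure of how far controls differ, IgG E13.5 over IgG E12.5 had 0 of 8 members past 2-fold on log2(level + 1). The background was 3.72% higher and 5.62% lower. Without the pseudocount, Cdkn2d stood at 0.435 (0.194 to 1.02), Ccnd1 at 0.469 (upper 95% bound 0.906), Cdkn1a at 0.531 (0.349 to 0.822) and Cdkn2b at 2.06 (0.728 to 8.03). The calls of Ccnd1 and Cdkn1a changed with the control used, as did those of Cdkn2b, Cdkn2c, Cdkn1b, Ccnd2 and Ccnd3 at 1 stage or both.

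The share of reads on the second allele was near that of the autosomes (50.7% to 51.6% in the 5 libraries) for most members. Which strain is the first allele is not given in the sources used here. Exact two-sided binomial tests against the library's autosomal share, adjusted by Benjamini-Hochberg over all autosomal genes with at least 10 reads, called 2 of 9 members in H3K27me3 E12.5 (background 17.5%) and 1 of 9 in H3K27me3 E11.5 (background 11.7%). In IgG they called 0 of 4 members tested at E11.5 (3.66%), 0 of 7 at E12.5 (3.46%) and 2 of 9 at E13.5 (7.87%); at an unadjusted p under 0.05 the counts were 3 and 2 in H3K27me3 E12.5 and E11.5, and 0, 1 and 3 in these IgG libraries.

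Cdkn2b was the most one-sided member. The second allele had 47 of 57 reads with H3K27me3 at E12.5, a share of 82.5% (exact 95% interval 70.1 to 91.3), and 36 of 40 at E11.5, a share of 90.0% (76.3 to 97.2). With IgG it had 7 of 7 reads at E11.5, 4 of 4 at E12.5 and 28 of 31 at E13.5, a share of 90.3%. The skew was thus on the same side with both antibodies: the adjusted p of the exact test was 1.36e-05 in H3K27me3 E12.5, 7.54e-06 in H3K27me3 E11.5 and 0.000139 in IgG E13.5. Added over libraries, the share was 85.6% of 97 reads with H3K27me3 and 92.9% of 42 with IgG. Its neighbour Cdkn2a was not called in any library, at 46.7% and 49.8% with H3K27me3 and 46.9%, 65.6% and 52.6% with IgG. Both alleles of Cdkn2a were above IgG: at E12.5 the ratio was 8.29 (4.57 to 16.8) on the first allele and 3.82 (2.45 to 6.28) on the second, and at E11.5 it was 5.03 and 5.48. The E12.5 control held 11 and 21 reads on these alleles. Against IgG E13.5 the E12.5 ratios were 5.43 (4.1 to 7.2) and 4.33 (3.3 to 5.7). With either control the intervals of the 2 alleles overlapped.

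Ccnd3 leaned toward the second allele with either antibody, at 61.2% of 299 reads with H3K27me3 at E12.5 (adjusted p of the exact test 0.00364) and 59.9% of 558 with IgG at E13.5 (0.00118). It stood at 51.7% with H3K27me3 at E11.5, and at 49.4% and 61.5% with IgG at E11.5 and E12.5. Fisher's exact test between libraries, adjusted over all genes, called 0 of 7 members for H3K27me3 against IgG at E12.5 (background 2.35%), 0 of 4 at E11.5 (2.17%) and 0 of 9 for E12.5 against E11.5 with H3K27me3 (0.530%). At an unadjusted p under 0.05 those counts were 1, 1 and 0. With IgG E13.5 as the control for E12.5 it called 0 of 9 (6.12%), with 0 at an unadjusted p under 0.05. The one at E12.5 was Cdkn2a, with 46.7% of 568 reads on the second allele with H3K27me3 and 65.6% of 32 with IgG (exact p = 0.0449, adjusted 0.432). The one at E11.5 was Cdkn1a, with 76.0% of 25 reads on the second allele with H3K27me3 and 30.0% of 20 with male IgG (exact p = 0.00286, adjusted 0.0988).

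**Figure D4:**
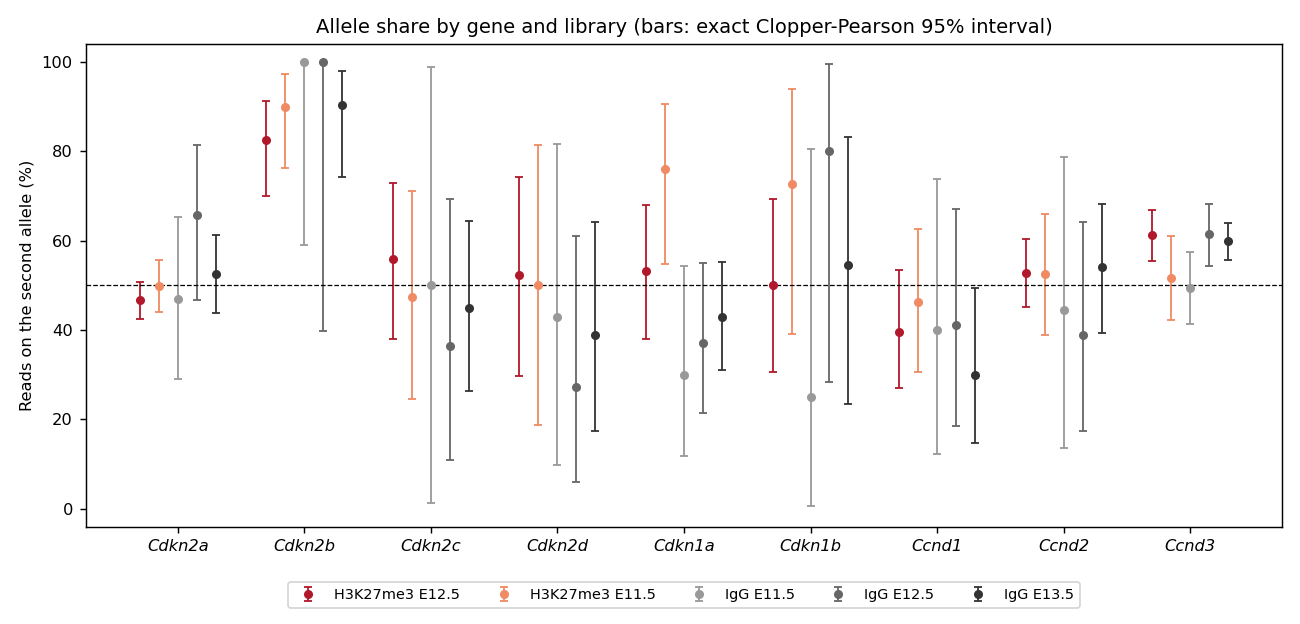
Percent of reads on the second allele for each gene in the 5 libraries, H3K27me3 left of IgG, with exact Clopper-Pearson 95% intervals. Cdkn2b lies at 82.5% to 100% in every library, and Cdkn2a at 46.7% and 49.8% with H3K27me3.

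The nearest measured genes on each side of a member often differed from it. On chromosome 4 (GRCm38.p6), Cdkn2a (89274473-89294619) and Cdkn2b (89306289-89311032) lie 11.7 kb apart. Mtap, a methionine salvage enzyme gene 93.4 kb on the other side of Cdkn2a, stood below IgG, with a ratio of 0.437 (0.323 to 0.593) at E12.5 and 0.549 at E11.5. Dmrta1, a DM-domain factor gene 377 kb beyond Cdkn2b, had 2.79 (1.69 to 4.91) and 2.88. Near Ccnd1 on chromosome 7 (144929931-144939831) the nearest genes stood both above and below the member at E12.5. Fgf15, 29.0 kb away, had a ratio of 7.03 (3.76 to 14.9) at E12.5 and 6.43 at E11.5, while LTO1, which overlaps Ccnd1 over 818 bases so that reads there cannot be assigned, had 0.523 (0.328 to 0.850). Tpcn2, 242 kb to the other side, had 0.526 at E12.5. Near Ccnd2 on chromosome 6 (127125162-127152188), Tigar, 15.6 kb away, had 0.852 (0.481 to 1.58) and Parp11, 295 kb away, 0.659, both below the 2.95 of Ccnd2.

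The remaining members had mixed surroundings. Cdkn1b (chromosome 6, 134920401-134925525) had Apold1, an endothelial early response gene, 56.5 kb away at 4.53 (2.69 to 8.23) at E12.5 and 6.87 at E11.5, and Gpr19 on its other side at 0.611. Around Ccnd3 (chromosome 17, 47505051-47599689) Bysl, which overlaps it over 359 bases, had 0.403, Taf8 0.468 and Med20 0.294, so its nearest genes were low like itself. Farther out the ratios were mixed: Guca1a had 3.09 and, to the other side, Usp49 had 0.441 and Tfeb 2.43. These farther genes were named after their values were seen. Cdkn1a (chromosome 17, 29090979-29100722) lay between Srsf3 at 0.396 and Rab44 at 0.715. Cdkn2c (chromosome 4, 109660876-109666756) had Faf1 at 0.602 and 4930522H14Rik at 1.89, and Cdkn2d (chromosome 9, 21288459-21291421) had Kri1, 0.490 kb away, at 0.205 and Ap1m2 at 0.513.

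**Figure D5:**
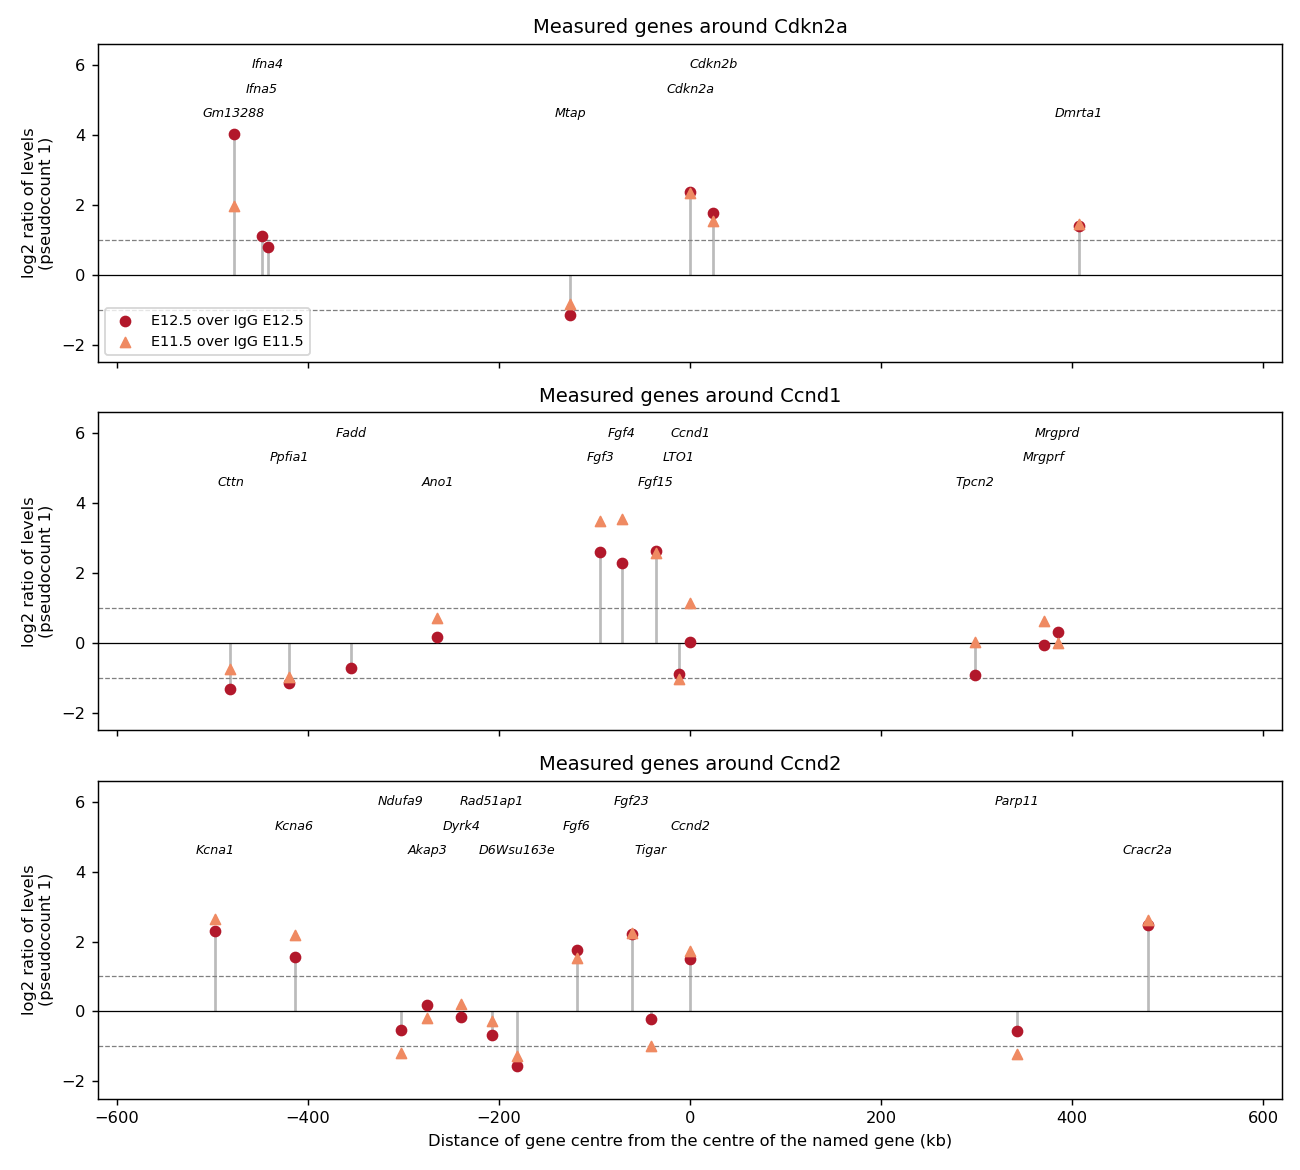
Log2 ratio of H3K27me3 to stage-matched IgG for the tested genes around Cdkn2a, Ccnd1 and Ccnd2, against the distance between gene centres in kb, at E12.5 and E11.5; the solid line is a log2 ratio of 0, dashed lines are the 2-fold threshold, and Gm13288 had 0 IgG reads at E12.5. Cdkn2a, at 2.37 at E12.5, stands above Mtap, and near Ccnd1 (0.04 at E12.5) Fgf15, Fgf4 and Fgf3 are higher than the member and LTO1 is lower.

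The kinases and downstream factors of the same pathway lay mostly below IgG. Of 25 listed genes, 24 had enough reads at E12.5, 1 of which was past 2-fold above (background 15.2%) and 9 below (background 29.5%), with a median log2 ratio of -0.86, against -0.54 over all genes tested. Ccna1, the germ cell cyclin A, was the one above, at 2.79 (1.35 to 6.71) at E12.5 and 2.31 (1.21 to 4.77) at E11.5. Its E12.5 ratio rested on 8 IgG reads, and against IgG E13.5 it was 1.43 (0.999 to 2.04) at E12.5 and 1.97 (1.32 to 2.93) at E11.5, neither past 2-fold. Against the IgG libraries added together its E12.5 ratio was likewise short of 2-fold (95% interval 1.15 to 2.23). The E11.5 ratio was past 2-fold against those added libraries, at 2.21 (1.51 to 3.21), and against IgG E12.5, at 3.86 (1.81 to 9.45). Those below were Ccnb1, the mitotic cyclin B, at 0.388, Cdk2, the kinase bound by cyclin E, at 0.403, the phosphatase gene Cdkn3 at 0.417, and the E2F genes E2f2 (0.375), E2f3 (0.390), E2f4 (0.345), E2f6 (0.353), E2f7 (0.416) and E2f8 (0.394). Cdk6, a partner of D-type cyclins, had 808 reads with H3K27me3 and 339 with IgG at E12.5, a ratio of 0.720 (0.633 to 0.819), and 0.752 at E11.5. Cdk4, its close relative, had 0.697 (0.353 to 1.46) at E12.5. At E11.5, 19 of the list had enough reads, with 1 above (background 17.2%) and 6 below (background 29.7%). The count below was near the share over all genes. Those below were E2f2 (0.375) and E2f3 (0.390), as at E12.5, with E2f5 (0.249), Rbl1 (0.394), Rbl2 (0.464) and Rb1, the retinoblastoma gene (0.403). At E12.5 E2f5 (0.516), Rbl1 (0.546), Rbl2 (0.672) and Rb1 (0.546) were not past 2-fold. Of the genes below at E12.5, Ccnb1 (0.480), Cdkn3 (0.672), E2f6 (0.700), E2f7 (0.586) and E2f8 (0.645) were not past 2-fold on log2(level + 1) at E11.5. Cdk2 and E2f4 had too few reads there.

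Genes with a pattern like that of a member were sought by Euclidean distance in log2(level + 1), each gene centred on its own mean, over the 5 libraries among 10047 autosomal genes with at least 20 reads in every library. Those nearest to Cdkn2a were Inhbc (distance 0.117), Sgce (0.199) and Mroh8 (0.209), whose E12.5 ratios were 5.07, 5.99 and 5.01. Those nearest to Cdkn1a, the member with the lowest ratio at E12.5, were Gga1 (0.0806), Pitpnm2 (0.0968) and Slc25a29 (0.107), at 0.418, 0.412 and 0.412. The distance used the same libraries as these ratios, so their closeness to the ratio of the member follows from the choice.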

How the data were processed

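Mouse primordial germ cell CUT&RUN libraries were analysed from 5 deposited tables, 1 per library. Each gives, per gene, the whole-number count of reads on the first and on the second allele, the fraction of reads on the second allele and the gene length, which the authors deposited without normalisation of the counts. The deposited fraction equals the second count over the sum of both. Per the submitters' processing notes, build mm10 was used with the aligner Bowtie2 2.4.2 and, among other tools, featureCounts, Trim Galore 0.6.6 and SAMtools 1.11. How duplicates were treated and how reads were assigned to an allele is not given in the sources used here. In these tables, reads without an informative variant are absent from the counts, so levels depend on variant density, and remaining PCR duplicates would make the intervals and exact tests too narrow.

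Levels were scaled to autosomal reads, with a pseudocount of 1 on the RPM scale and a minimum of 20 reads in a pair of libraries. Intervals and tests used SciPy 1.17.1 in Python 3.11.15, and the TMM alternative used edgeR 4.0.16 in R 4.3.3. With 1 library per group edgeR served for scaling only. A count test of antibody over the 2 H3K27me3 and 3 IgG libraries, which differ in stage and sex, was not run. Share tests took genes with at least 10 reads and an adjusted p threshold of 0.05. The scripts were tested on simulated data. RefSeq GRCm38.p6 positions were matched for 21083 of 21352 genes. All 9 members are named, with the nearest measured gene on each side, the pathway genes past 2-fold at E12.5, and the 3 genes nearest in pattern to the member with the highest and with the lowest E12.5 ratio. Cdk4, Cdk6 and the pathway genes past 2-fold at E11.5 are named as well. The members, lists and thresholds were chosen with earlier results of these data known.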

Additional observations from a re-analysis of the deposited data

How the results depend on the processing

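No paired analysis was possible because each group had 1 library with a file, and for the same reason no replicate could be left out. No ratio of a member that was past 2-fold changed sign. Over the alternatives at E12.5, Cdkn2a stayed between 1.90 and 2.97 on the log2 scale and Ccnd2 between 1.13 and 2.03, while Ccnd3 (-1.17 to -0.59) and Cdkn1a (-1.63 to -0.36) stayed below 0. Among ratios to IgG not past 2-fold, those of Cdkn2c, Cdkn2d and Ccnd1 at E12.5 and of Cdkn2d, Cdkn1a and Cdkn1b at E11.5 had both signs over the alternatives. Of the members' ratios, 91 of 99 at E12.5, 103 of 108 at E11.5 and 42 of 45 between stages stayed within the interval of the reported value. Part of this was fixed in advance, because a changed minimum of reads leaves each ratio to IgG as it is. The intervals of genes with few reads are also wide, so a ratio can stay within and lose its call. With IgG E13.5, Cdkn2b went from 1.76 to 0.94 on the log2 scale at E12.5, and Cdkn2c from 1.87 to 0.58 at E11.5. The count of members below IgG at E12.5, reported as 2, was 0 with IgG E13.5, with the 3 IgG libraries added together, with TMM scaling and with centring on the median gene, and 1 with a pseudocount of 5 and with second-allele reads only. At E11.5 the count below, reported as 1, was 0 with IgG E13.5, TMM and centring, and 2 with IgG E12.5 and with first-allele reads only; the count above, reported as 5, was 2 with IgG E12.5 and 3 with a minimum of 50 reads. Over all autosomal genes at E12.5, those above numbered 4114 with TMM, 4221 with centring and 3789 with a threshold of 1.5, against 2511 as reported. Those below numbered 918, 778 and 8022 under these settings and 3000 with a pseudocount of 5, against 4881. At E11.5 those below numbered 1407 with TMM, 1110 with centring and 7030 with a threshold of 1.5, against 4466. TMM raised the median ratio by 0.51 at E12.5 and 0.43 at E11.5, and centring by 0.54 and 0.49. A fall in the scaled counts below follows from that shift; the cause of the other changes was not tested. Depth limited Cdkn2b, Cdkn2c, Cdkn2d and Cdkn1b most, with 2 to 11 reads each in the IgG libraries of E11.5 and E12.5.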

Other observations

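Fibroblast growth factor genes lie beside Ccnd1 and Ccnd2, and those beside Ccnd1 had higher ratios to IgG than Ccnd1 itself. These genes were chosen after their values were seen. Next to Ccnd1, Fgf4, which encodes a growth factor of early embryos, had 524 reads with H3K27me3 and 31 with IgG at E12.5, a ratio of 5.10 (95% interval 3.55 to 7.59), and at E11.5 the ratio was 12.6 (7.63 to 22.2). Fgf3, which acts in inner ear development, had 6.62 (3.89 to 12.3) at E12.5, and at E11.5 its interval ran between 6.87 and 25.4. Next to Ccnd2, Fgf23, the phosphate-regulating hormone gene, had 5.01 (2.98 to 9.09) at E12.5 and 5.03 (2.94 to 9.25) at E11.5, and Fgf6, a gene of skeletal muscle, had 3.73 (2.02 to 7.65) and 3.07 (1.64 to 6.26), the E11.5 value lying below the 3.65 of Ccnd2. All 4 were past 2-fold above IgG at both stages, where 15.2% of autosomal genes were at E12.5 and 17.2% at E11.5. Since they were picked by their values, that count follows from the choice. The intervals of Fgf23 and Fgf6 overlapped that of Ccnd2 (1.81 to 5.10 at E12.5), whereas those of Fgf3 and Fgf4 lay above that of Ccnd1 (0.592 to 1.89).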
